A study of Sus scrofa with 6 samples.

Results

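Cell cycle and proliferation genes were examined in peripheral blood mononuclear cells (PBMCs) of pigs. A list of 50 names covering DNA replication and mitosis was matched to the symbols of the deposited expression table. Of these, 36 had a row, and all 36 reached the threshold of at least 1 FPKM (fragments corrected for transcript length and library size) in at least 3 of the 6 libraries, against 10735 of the 11564 genes of the whole table that reached it. The 36 members were split into 16 genes of G1/S and S phase and 20 genes of G2 and M phase. The members nearest to the threshold were TTK and CHEK1, which reached 1 FPKM in 4 libraries, and CENPE, which reached it in 5, while no listed gene with a row lay under it. The names AURKA, BIRC5, BUB1, BUB1B, GINS1, MCM5, MCM6, MCM7, NUSAP1, PLK1, PRC1, RRM2, TK1 and TYMS matched no symbol in the table and were not analysed as members.

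The libraries came from Yorkshire pigs at 6 months of age, 3 labelled WT and 3 labelled Leptin-overexpressing (called leptin from here on), with 1 library per pig. PBMCs are mainly lymphocytes and monocytes, separated from red cells and granulocytes by density. The leptin pigs carried an added pig leptin gene driven by the pig leptin promoter and were made by nuclear transfer from transfected fetal fibroblasts, and the WT pigs were nontransgenic. Whether the leptin pigs came from 1 cell clone is not given in the sources used here. No treatment was given in the labels. The comparison of the labels asks whether RNA levels of blood cells differ between pigs with and without the transgene.

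The cell cycle runs from G1 through DNA synthesis in S phase and through G2 into mitosis (M phase). Entry into S phase depends on cyclin E with CDK2 and on E2F transcription factors, which switch on the genes for origin licensing, the MCM helicase and DNA synthesis. Mitosis depends on CDK1 with cyclins A and B, and its end depends on the anaphase-promoting complex, which marks the cyclins for destruction. Most lymphocytes and monocytes in blood rest outside the cycle, and dividing cells in PBMCs are mainly activated lymphocytes and plasmablasts.

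LEP, the gene carried by the transgene (ENSSSCG00000016588), was read first as a check of the labels. It was at 50.01 FPKM, listed at 0 and at 0.118 FPKM in the libraries labelled WT replicates 1, 2 and 3, and listed at 0 and at 18.3 and 39.3 FPKM under the leptin label. Both replicate 1 libraries thus went against their labels, so directions are those of the labels as deposited, and the label comparison of the members and of the single genes with the larger differences is also given without these libraries. Depth cannot be read from FPKM values and is unknown. Per library the values added up to between 444888 and 503140, and the median-of-ratios factor, which scales the libraries to a common typical gene, ran from 0.904 in the library labelled WT replicate 1 to 1.09 in that labelled leptin replicate 1. Markers of T cells, B cells and monocytes were present in every library, with CD3E at 213 FPKM or more, CD79A at 133 FPKM or more and CD14 at 99.9 FPKM or more.

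The members differed between libraries of the same label. The library labelled WT replicate 3 had the highest FPKM for 28 of the 36 members (21.9% of all genes tested had their highest value there), and that labelled leptin replicate 3 was among the 2 highest for 32 members (30.7% of all genes). The library labelled WT replicate 1 was lowest for 21 members (37.5% of all genes), and that labelled leptin replicate 2 was lowest for 12 (25.4% of all genes). The labels overlapped for all 36 members, and 7.63% of all genes had no overlap. Without both replicate 1 libraries 1 member, CHEK1, had no overlap, with the leptin label below (25.9% of all genes had none in either direction). For CHEK1 this was close to a tie, with 1.277 FPKM in the library labelled leptin replicate 3 and 1.278 FPKM in that labelled WT replicate 2. The members summed to 348, 376 and 557 FPKM in the libraries labelled WT and to 472, 386 and 515 FPKM under the leptin label, where values for a label are listed here and below from replicate 1 to replicate 3. In bulk PBMC RNA, fewer dividing cells and less of these transcripts per cell cannot be told apart.

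The level of the members in a library was also expressed as the mean, over members, of the deviation of log2(FPKM + 1) from the gene's own mean over the 6 libraries. That mean was -0.28, -0.17 and 0.37 under the WT label and 0.059, -0.20 and 0.23 under the leptin label. Over all genes tested it was -0.10, -0.024 and 0.059 and then 0.084, -0.043 and 0.029, so the members had the same sign as all genes in the 6 libraries and lay further from 0 in all but that labelled leptin replicate 1. Above their own mean lay 35 of 36 members in the library labelled WT replicate 3 (67.5% of all genes) and all 36 in that labelled leptin replicate 3 (60.4%), against 2 and 6 members in those labelled WT replicate 1 (31.5%) and leptin replicate 2 (41.4%). In those labelled WT replicate 2 and leptin replicate 1 the counts were 5 (44.1% of all genes) and 24 (73.3%). After median-of-ratios scaling the mean deviations of the members were -0.16, -0.13 and 0.29 and then -0.040, -0.15 and 0.19, so that the sign changed in the library labelled leptin replicate 1. The library labelled WT replicate 3 was then highest for 26 members (15.1% of all genes after scaling), while that labelled WT replicate 1 was lowest for 13 (23.9% of all genes) and that labelled leptin replicate 2 for 14 (23.2%). Without the 2 replicate 1 libraries, that labelled WT replicate 3 was highest of the other 4 for 29 members (37.4% of all genes).

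**Figure D1:**
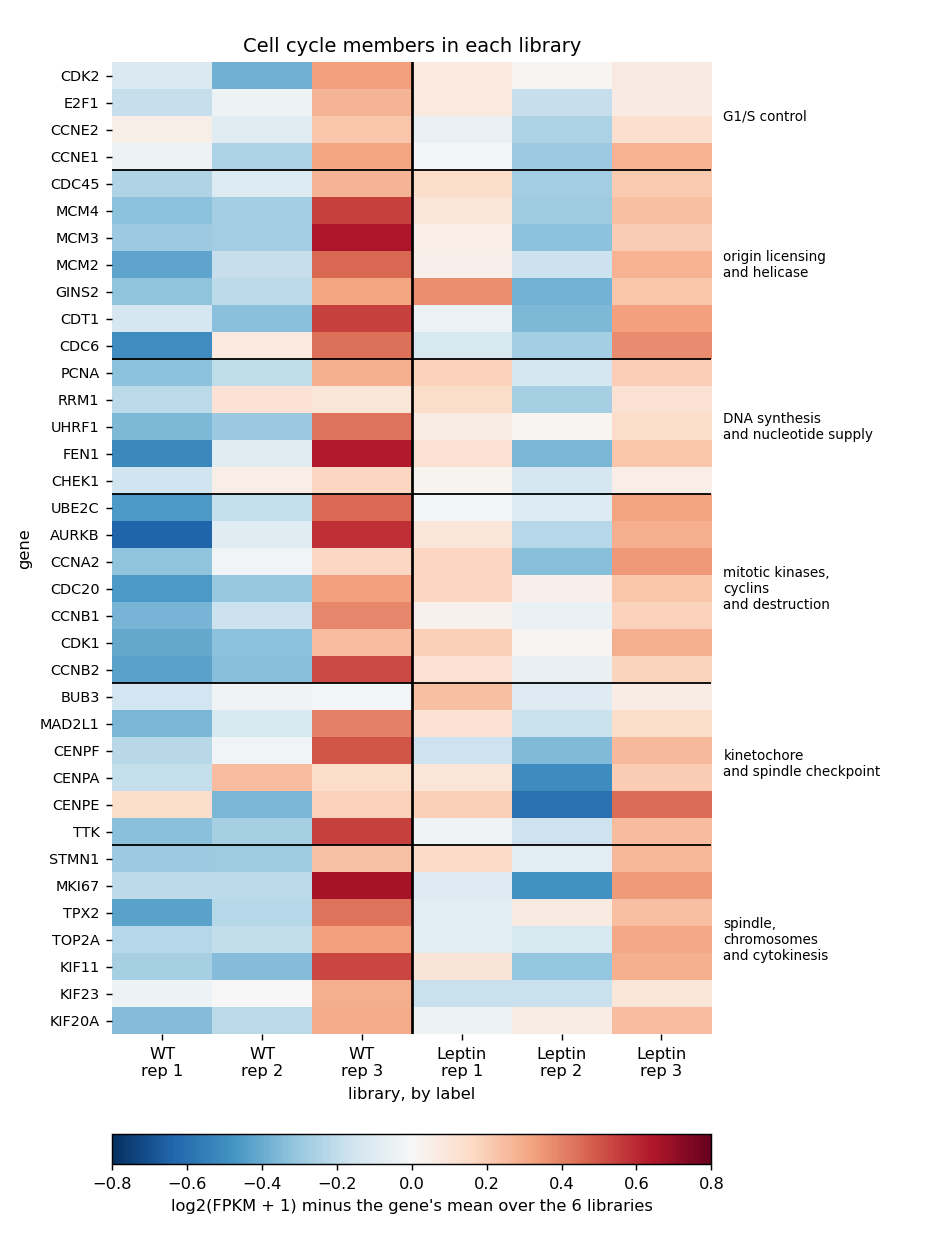
Deviation of log2(FPKM + 1) from each gene's mean over 6 libraries (colour) for the 36 members (rows, grouped by function) in each library (columns, by label). Red fills the columns labelled WT replicate 3 and leptin replicate 3, where 35 and 36 members lie above their own mean, and blue fills most of those labelled WT replicate 1, WT replicate 2 and leptin replicate 2.

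All 36 members were higher in the library labelled WT replicate 3 than in that labelled WT replicate 1 (71.0% of all genes were), with a median of 1.79-fold and a range from 1.05-fold for CENPE to 2.92-fold for TTK. All 36 were also higher in the library labelled leptin replicate 3 than in that labelled leptin replicate 2 (60.8% of all genes were), with a median of 1.41-fold. After scaling, these were 34 members with a median of 1.51-fold and 35 members with a median of 1.31-fold. Between the 2 libraries with the highest member levels, that labelled WT replicate 3 exceeded that labelled leptin replicate 3 for 29 members (58.9% of all genes), with a median of 1.15-fold. The standard deviation among the libraries labelled WT was larger than among those labelled leptin for 29 members (57.5% of all genes). No test was made of these differences between single libraries, which have no replicate check of their own.

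Genes of G1/S control had modest levels. CDK2, the kinase that cyclin E activates (ENSSSCG00000000373), was at 10.9, 8.86 and 15.1 FPKM under the WT label and at 12.6, 11.98 and 12.5 FPKM under the leptin label. The 3 libraries labelled leptin were close together and lay inside the range of those labelled WT. The log2 difference of leptin minus WT labels was 0.11 (standard error 0.20, 95% interval -0.34 to 0.56, limma). E2F1, a transcription factor that activates S phase genes, was at 6.96, 7.81 and 9.96 FPKM and at 8.55, 6.96 and 8.48 FPKM, with 2 nearly equal lowest values, in the libraries labelled WT replicate 1 and leptin replicate 2. The E-type cyclins CCNE1 and CCNE2, which drive CDK2 at entry into S phase, were lower, between 1.40 and 2.75 FPKM across the 6 libraries. CCNE2 had the most negative log2 difference of the class, -0.11 (95% interval -0.49 to 0.27). All 4 genes of the class had their highest value in the library labelled WT replicate 3.

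Origin licensing and helicase genes followed the library pattern closely. MCM4, a subunit of the ring that unwinds DNA (ENSSSCG00000006273, chromosome 4 from 87134011 to 87185073 as the table gives it, with no build named), was at 13.5, 13.99 and 25.5 FPKM under the WT label and at 18.4, 13.9 and 20.4 FPKM under the leptin label. The library labelled WT replicate 3 stood above the other 5, and those labelled WT replicates 1 and 2 were level with that labelled leptin replicate 2. The mean was 17.6 ± 6.78 FPKM (SD, n = 3) for the WT label and 17.6 ± 3.33 FPKM for the leptin label, a log2 difference of 0.037 (95% interval -0.57 to 0.64). MCM3, another subunit of the ring, was at 9.44, 9.53 and 19.0 FPKM and at 12.3, 9.17 and 13.7 FPKM, and so had its highest and lowest values in the libraries labelled WT replicate 3 and leptin replicate 2. MCM2 ran from 6.71 FPKM in the library labelled WT replicate 1 to 13.2 FPKM in that labelled WT replicate 3.

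CDC45, which joins the MCM ring in the active helicase, was the most abundant gene of this class. It was at 17.4, 19.1 and 25.2 FPKM under the WT label and at 23.0, 16.9 and 24.1 FPKM under the leptin label. High and low libraries were present under both labels. GINS2, a subunit of the complex that completes the same helicase, was at 5.86, 6.403 and 9.68 FPKM and at 10.1, 5.61 and 9.01 FPKM. It differed from most members in that the library labelled leptin replicate 1 was the highest, and its log2 difference of 0.15 (95% interval -0.43 to 0.72) was the largest of the class. CDT1 and CDC6, which load the MCM ring at origins, were at lower levels, from 2.97 to 6.42 FPKM and from 1.51 to 3.79 FPKM. Both had their highest value in the library labelled WT replicate 3, and CDT1 had a log2 difference of -0.052 (95% interval -0.67 to 0.56).

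Among genes of DNA synthesis and nucleotide supply, PCNA, the sliding clamp of DNA polymerases (ENSSSCG00000030642, chromosome 17 from 15127106 to 15132926), had the highest level. PCNA was at 27.3, 29.9 and 42.3 FPKM under the WT label and at 39.4, 31.3 and 39.7 FPKM under the leptin label. The libraries labelled WT spanned the full range, with those labelled leptin inside it. Its mean was 33.2 ± 8.01 FPKM (SD, n = 3) for the WT label and 36.8 ± 4.76 FPKM for the leptin label, a log2 difference of 0.16 (95% interval -0.30 to 0.62).

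RRM1 encodes the large subunit of ribonucleotide reductase, which makes deoxynucleotides. RRM1 was at 18.9, 24.1 and 23.8 FPKM under the WT label and at 24.7, 18.3 and 24.2 FPKM under the leptin label. A single library of each label was low for RRM1, WT replicate 1 and leptin replicate 2, and the other 4 were level. FEN1, the nuclease that trims Okazaki fragments, varied more, at 6.86, 9.53 and 16.5 FPKM and at 11.2, 7.73 and 12.1 FPKM, or 2.40-fold from the lowest to the highest library. UHRF1, which carries DNA methylation through replication, was at 10.3, 10.8 and 18.6 FPKM and at 14.1, 13.7 and 15.0 FPKM, so that the libraries labelled leptin lay together between the extremes of those labelled WT. CHEK1, the kinase of the replication checkpoint, stayed between 0.961 and 1.48 FPKM.

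In the class of mitotic kinases, cyclins and destruction factors every member had a positive log2 difference, 7 of 7 between 0.10 and 0.33. None passed a test, and 63.1% of all genes tested had a positive difference. The 7 members were also all above 0 after median-of-ratios scaling. Only 2 of 7 were above 0 without the library labelled WT replicate 1, and 5 of 7 without that labelled leptin replicate 3. Without both replicate 1 libraries 2 of 7 were (43.2% of all genes). CDK1, the kinase that drives mitosis (ENSSSCG00000010214, chromosome 14 from 69262318 to 69277262), was at 4.53, 4.84 and 7.69 FPKM under the WT label and at 7.36, 6.41 and 7.98 FPKM under the leptin label. The libraries labelled WT replicates 1 and 2 were the lowest, but that labelled WT replicate 3 lay above leptin replicates 1 and 2, so the labels overlapped. CDK1 had the largest log2 difference of all members, 0.33 (standard error 0.20, 95% interval -0.14 to 0.80, adjusted p = 0.993, limma), which was 0.20 without both replicate 1 libraries (95% interval -0.45 to 0.84). Its partners CCNA2, CCNB1 and CCNB2 (cyclins A2, B1 and B2) had log2 differences of 0.12, 0.11 and 0.16, and of -0.066, -0.041 and -0.036 without both replicate 1 libraries. CCNA2 was 1 of the 4 members with their highest value in the library labelled leptin replicate 3, at 10.1 FPKM, whereas CCNB1 and CCNB2 were highest in that labelled WT replicate 3, at 9.10 and 4.69 FPKM.

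UBE2C, the ubiquitin-conjugating enzyme of the anaphase-promoting complex, was at 12.9, 15.8 and 25.2 FPKM under the WT label and at 17.9, 16.7 and 22.9 FPKM under the leptin label. Both replicate 3 libraries were above the other 4. CDC20, an activator of that complex, was at 4.83, 5.49 and 9.04 FPKM and at 8.04, 7.25 and 8.34 FPKM, a log2 difference of 0.29 (95% interval -0.21 to 0.79) that was 0.12 without both replicate 1 libraries. AURKB, a kinase that corrects chromosome attachments, was at 4.96, 7.68 and 12.9 FPKM and at 8.93, 6.94 and 10.4 FPKM. Its libraries under the WT label differed by up to 2.61-fold, while the means of the labels were 8.52 ± 4.05 and 8.75 ± 1.72 FPKM (SD, n = 3).

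Genes of the kinetochore and spindle checkpoint were the most mixed. BUB3, a protein of the spindle checkpoint, was at 18.5, 20.2 and 20.5 FPKM under the WT label and at 24.7, 19.2 and 21.6 FPKM under the leptin label. It had the smallest range of all members, 1.33-fold, and its highest value was in the library labelled leptin replicate 1. MAD2L1, which holds back anaphase until chromosomes attach, was at 3.78, 4.64 and 7.13 FPKM and at 5.68, 4.44 and 5.82 FPKM, with the library labelled WT replicate 3 highest. CENPF, a kinetochore protein of G2 and M phase, was at 2.01, 2.47 and 3.98 FPKM and at 2.14, 1.75 and 3.20 FPKM, and had the most negative log2 difference of all members, -0.17 (95% interval -0.72 to 0.37).

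CENPE, a kinesin that moves chromosomes to the spindle equator, had the widest range of all members, 3.42-fold. It was at 1.96, 1.09 and 2.05 FPKM under the WT label and at 2.07, 0.780 and 2.67 FPKM under the leptin label. Here the library labelled WT replicate 1 was not low, and those labelled WT replicate 2 and leptin replicate 2 were. CENPA, the histone of centromeres, was the 1 member with its highest value in the library labelled WT replicate 2, at 2.73 FPKM, and it was lowest at 1.21 FPKM in that labelled leptin replicate 2. TTK, a checkpoint kinase, was at 2.28 FPKM in the library labelled WT replicate 3 and at 1.68 FPKM or less in the other 5.

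Among genes of the spindle, chromosomes and cytokinesis, STMN1 (stathmin, a protein that destabilises microtubules, ENSSSCG00000026257, chromosome 6 from 76928473 to 76934104) was the most abundant member. STMN1 was at 103.0, 103.3 and 149 FPKM under the WT label and at 141, 119 and 152 FPKM under the leptin label. The libraries labelled WT replicates 1 and 2 were the lowest and both replicate 3 libraries were the highest. The mean was 118 ± 26.3 FPKM (SD, n = 3) for the WT label and 137 ± 16.9 FPKM for the leptin label, a log2 difference of 0.22 (95% interval -0.22 to 0.67).

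MKI67, which encodes the proliferation marker Ki-67 (ENSSSCG00000026302, chromosome 14 from 149170561 to 149198585), was at 9.77, 9.77 and 18.8 FPKM under the WT label and at 10.6, 7.91 and 14.7 FPKM under the leptin label. Both replicate 3 libraries stood above the other 4, which lay between 7.91 and 10.6 FPKM. The mean was 12.8 ± 5.21 FPKM (SD, n = 3) for the WT label and 11.1 ± 3.44 FPKM for the leptin label, a log2 difference of -0.17 (95% interval -0.85 to 0.51). Thus MKI67 and CDK1, both used as marks of dividing cells, had log2 differences of opposite sign by label, each with an interval that included 0. TOP2A, the topoisomerase that untangles replicated chromosomes, was at 6.56, 6.71 and 10.1 FPKM and at 7.29, 7.09 and 9.95 FPKM, again highest in both replicate 3 libraries. KIF23, a kinesin of the cell division midzone, had a log2 difference of -0.17 (95% interval -0.54 to 0.20). TPX2, KIF11 and KIF20A, which act in building the spindle or in cytokinesis, had differences of 0.15, 0.054 and 0.18, and of 0.054, -0.10 and 0.11 without both replicate 1 libraries.

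**Figure D2:**
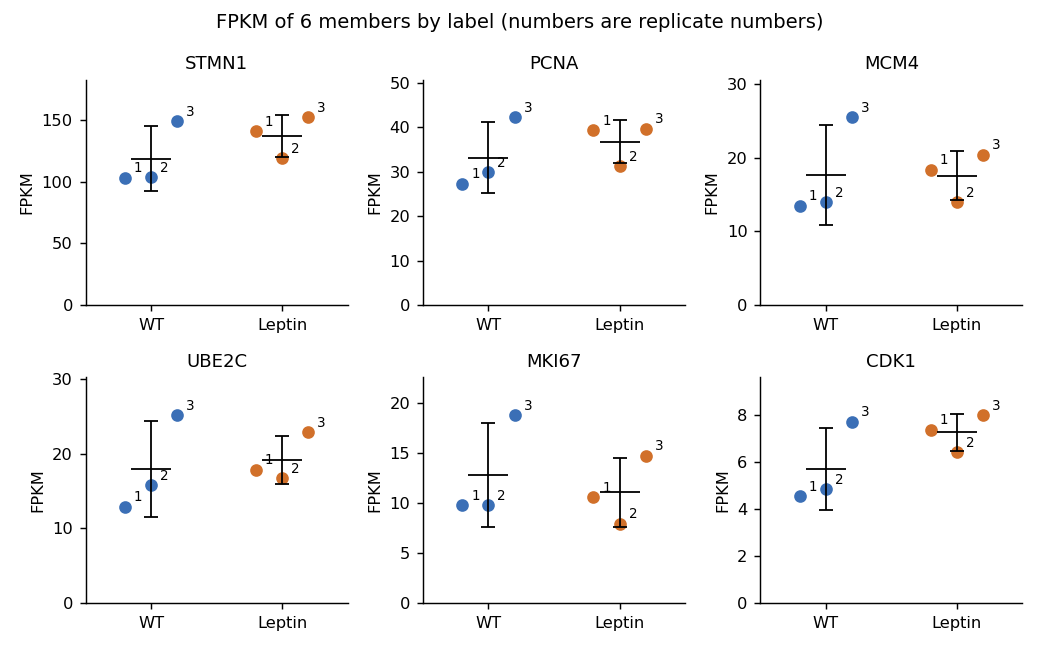
FPKM of STMN1, PCNA, MCM4, UBE2C, MKI67 and CDK1 in each library, by label, with points numbered by replicate and bars showing the mean ± SD of 3 libraries on axes that start at 0. The point of replicate 3 is the highest within each label in all 6 panels, and the labels overlap in each.

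Genes of early and late cycle ordered the libraries alike before scaling. The mean deviation of the 16 G1/S and S members was -0.26, -0.16 and 0.37 under the WT label and 0.072, -0.23 and 0.20 under the leptin label. For the 20 G2 and M members it was -0.30, -0.17 and 0.36 and then 0.049, -0.18 and 0.25. The order of the 6 libraries was the same for both phases, from WT replicate 3 and leptin replicate 3 at the top to leptin replicate 2 and WT replicate 1 at the bottom. After median-of-ratios scaling the 3 highest libraries were again in the same order, but the 3 lowest were not. WT replicate 1, WT replicate 2 and leptin replicate 2 were then at -0.13, -0.12 and -0.18 for the G1/S and S members and at -0.18, -0.14 and -0.13 for the G2 and M members. The G2 and M level minus the G1/S and S level was -0.044, -0.018 and -0.013 in the libraries labelled WT and -0.023, 0.045 and 0.053 in those labelled leptin, so the labels overlapped and the phases differed by far less than the libraries did. The overlap rested on the library labelled leptin replicate 1, and without it, or without both replicate 1 libraries, the values under the leptin label lay above those under the WT label. These are log2 values described without a test.

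Compared by label in limma, no member passed the unadjusted threshold of 0.05 in either direction. Over all genes tested, 3.18% did, 1.98% with higher and 1.19% with lower values in the libraries labelled leptin. No member had an adjusted p under 0.05 either, against 1 gene or 0.00932% over all genes, and the smallest adjusted p of a member was 0.993. The log2 difference was above 0 for 24 members and below 0 for 12, and 63.1% of all genes tested were above 0. After median-of-ratios scaling 20 were above 0 and 16 below. The median log2 difference of the members was 0.056, next to 0.059 for all genes, and the median was -0.0062 for the G1/S and S members and 0.11 for the G2 and M members. For a single gene, an exact permutation test of 3 against 3 libraries, two-sided, could not give a p under 0.1.

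**Figure D3:**
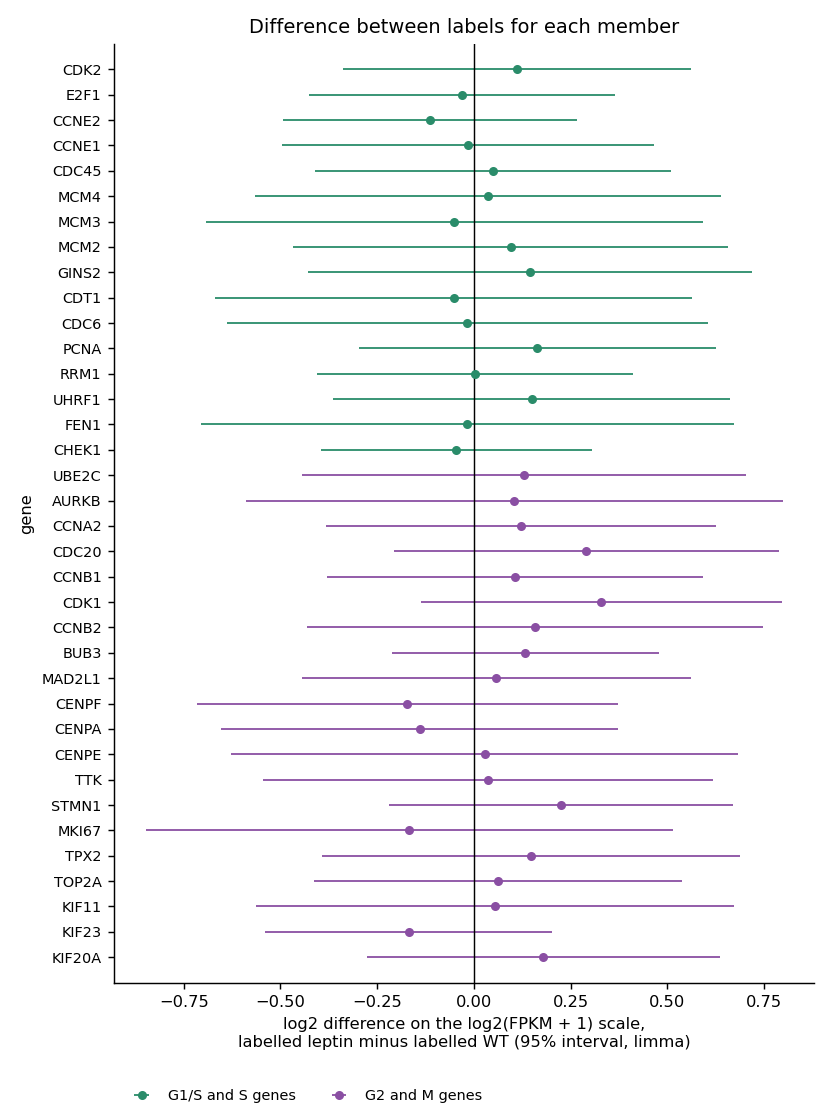
Log2 difference of each of the 36 members on the log2(FPKM + 1) scale, leptin minus WT label, with the 95% interval from limma, coloured by cycle phase. Every interval includes 0, and the estimates run from -0.17 for CENPF to 0.33 for CDK1.

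The label comparison depended on single libraries. Without the library labelled WT replicate 3, 4 members had an unadjusted p under 0.05, all higher under the leptin label (5.67% of all genes tested were), although none had an adjusted p under 0.05. They were CDK1, CDC20, CCNB2 and UHRF1, with log2 differences of 0.53, 0.53, 0.46 and 0.40 and an adjusted p of 0.618 each in limma. The median of the members was then 0.29, with 33 of 36 above 0, against 0.11 for all genes. Without both replicate 1 libraries, whose LEP values went against their labels, no member had an unadjusted p under 0.05, 10 of 36 lay above 0 (43.2% of all genes did) and the median was -0.10, against -0.032 for all genes. The log2 difference was then 0.11 for STMN1, 0.070 for CDK2, 0.012 for UHRF1, -0.010 for PCNA and -0.13 for GINS2, and for CDT1, KIF23, CENPF and MKI67 it was -0.12, -0.19, -0.29 and -0.30. Without the library labelled WT replicate 1 alone the median was -0.067, and without that labelled leptin replicate 3 it was -0.050, so the sign of the members' median changed with the libraries included.

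Rows of 2 listed genes carried no symbol in the table and were paired with BUB1B and BUB1 by gene identifier in a reference table of names. They are not members by the rule. BUB1B, a checkpoint kinase homologue, was at 1.505, 2.60 and 4.34 FPKM under the WT label and at 2.79, 2.12 and 2.86 FPKM under the leptin label. BUB1, a kinetochore kinase, was at 2.18, 1.77 and 3.16 FPKM and at 2.53, 2.09 and 2.45 FPKM. Both had their highest value in the library labelled WT replicate 3, as most members did, and log2 differences of -0.027 and 0.012, or -0.34 and -0.058 without both replicate 1 libraries.

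Other genes of the cycle, 186 in 7 lists, were read in the same way, and 114 of them were tested. In none of the lists did a gene have an unadjusted p under 0.05 by label, and 2 did without both replicate 1 libraries (2.48% of all genes), CENPW and ANAPC13. Of 31 other replication factors (47 listed), 23 were highest in the library labelled WT replicate 3 and 30 were above their own mean there (21.9% and 67.5% of all genes). Of 40 other mitotic factors (68 listed), 28 were highest there and 39 were above their own mean. The mean deviation of the replication factors was -0.29, -0.12 and 0.26 under the WT label and 0.11, -0.11 and 0.15 under the leptin label, and that of the mitotic factors was -0.21, -0.13 and 0.32 and then 0.066, -0.16 and 0.12. Genes outside the member list thus ordered the libraries much as the members did, with WT replicate 3 highest and leptin replicate 3 next.

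Single genes of these lists showed the largest label differences of the cycle, none with an unadjusted p under 0.05 over the 6 libraries. RNASEH2A, a subunit of the nuclease that removes ribonucleotides from DNA, was at 8.24, 13.3 and 21.4 FPKM under the WT label and at 19.1, 18.3 and 19.9 FPKM under the leptin label, a log2 difference of 0.48 (95% interval -0.19 to 1.16). NUF2, a kinetochore protein, was at 2.06, 3.78 and 4.95 FPKM and at 6.11, 4.54 and 4.90 FPKM (log2 difference 0.47). In both genes the library labelled WT replicate 1 was the lowest, and without both replicate 1 libraries the differences were 0.16 and 0.10. CENPW, another kinetochore protein, was at 3.86, 6.07 and 7.41 FPKM and at 7.499, 1.92 and 3.41 FPKM, a difference of -0.47 that was -1.10 without both replicate 1 libraries (95% interval -1.76 to -0.45, adjusted p = 0.999, limma). MCM9, a helicase of DNA repair, was at 1.78, 2.15 and 1.99 FPKM and at 1.703, 1.11 and 1.54 FPKM, and was the 1 gene of the 114 with all libraries labelled leptin below all those labelled WT (2.63% of all genes), with a log2 difference of -0.28 (95% interval -0.64 to 0.071). ANAPC16 and RFC2 had all libraries labelled leptin above those labelled WT (5.0% of all genes), with differences of 0.22 and 0.14. For RFC2 the gap was narrow, from 54.8 FPKM in the library labelled WT replicate 2 to 55.2 FPKM in that labelled leptin replicate 2. Without both replicate 1 libraries the differences of MCM9, ANAPC16 and RFC2 were -0.41, 0.12 and 0.040. Leaving libraries out cannot create an overlap, so the lack of one there adds nothing for these genes. Of the 114 genes, 12 then had the leptin label below without overlap (15.5% of all genes) and 5 had it above (10.4% of all genes). The 11 tested genes of the anaphase-promoting complex had differences between -0.071 for ANAPC10 and 0.48 for ANAPC13, the latter 0.62 without both replicate 1 libraries (95% interval 0.083 to 1.16, adjusted p = 0.999, limma).

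Genes that act before S phase did not all follow the library pattern. CCND3, a D-type cyclin of lymphocytes, was at 415, 307 and 286 FPKM under the WT label and at 277, 361 and 275 FPKM under the leptin label. Its highest values were thus in the libraries labelled WT replicate 1 and leptin replicate 2, where the members were lowest. CDKN2C, an inhibitor of CDK4 and CDK6, was at 4.33, 5.12 and 7.98 FPKM and at 6.23, 5.29 and 6.77 FPKM and followed the members, whereas CDKN2B, a related inhibitor, had its highest value of 2.53 FPKM in the library labelled WT replicate 1 (log2 difference -0.55, 95% interval -1.46 to 0.35, and -0.80 without both replicate 1 libraries). Of the RB, E2F and DREAM proteins, which hold cell cycle genes silent or switch them on, 12 of 20 were tested, with differences from -0.20 for E2F3 to 0.21 for RBBP4, both 0.039 without both replicate 1 libraries. CCNH, the cyclin of the kinase that activates other CDKs, had a difference of 0.072.

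The quiescence and antiproliferative genes, 14 tested of 19, ran opposite to the members in the libraries labelled WT replicates 1 and 3, also after scaling, where their means were 0.35 and -0.20. Their mean deviation was 0.20, -0.066 and -0.12 in the libraries labelled WT and -0.047, -0.062 and 0.089 in those labelled leptin. It was thus highest in the library labelled WT replicate 1, where the members were lowest, and lowest in that labelled WT replicate 3, where the members were highest. TXNIP, which restrains glucose uptake, was at 1088, 784 and 430.1 FPKM and at 449, 652 and 712 FPKM. BTG2, an antiproliferative gene, was at 38.5, 55.5 and 26.3 FPKM and at 52.3, 54.1 and 62.7 FPKM and had the most positive log2 difference of any gene in these lists, 0.54 (95% interval -0.050 to 1.13, adjusted p = 0.993, limma), which was 0.59 without both replicate 1 libraries.

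**Figure D4:**
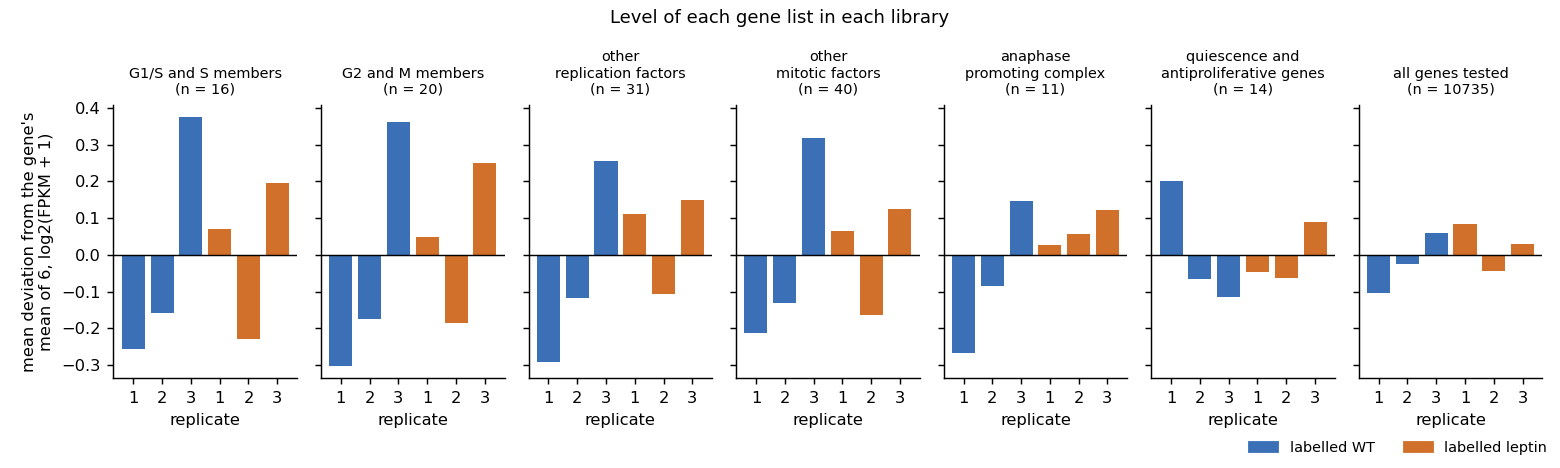
Mean deviation of log2(FPKM + 1) from each gene's mean of 6 libraries (bars) by replicate number and label for the members of both phases, 4 other lists and all genes tested. The bar of WT replicate 3 is the highest for both phases of members (0.37 and 0.36) and for the other replication and mitotic factors (0.26 and 0.32), and it is negative for the quiescence genes (-0.12).

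Markers of blood cell types also differed between the libraries, and their part in the member levels was not tested. The granulocyte list, with 6 of its 10 names in the table, summed to 3519, 695 and 413 FPKM in the libraries labelled WT and to 412, 1268 and 639 FPKM under the leptin label. Its highest sums were in the libraries labelled WT replicate 1 and leptin replicate 2, with 2 and 6 members above their own mean, but that labelled WT replicate 2, with 5 members above, was not high. S100A8, S100A9, S100A12 and LTF were all highest in the library labelled WT replicate 1, at 699, 1031, 1702.4 and 25.6 FPKM, whereas MMP9 was highest in that labelled leptin replicate 2, at 225 FPKM, and ELANE was at 1.05 FPKM or less in every library. The NK and cytotoxic list (9 of 10 names) summed to 709, 323 and 726 FPKM and to 548, 442 and 691 FPKM, and the plasmablast list (6 of 10 names) to 404, 464 and 688 FPKM and to 543, 349 and 575 FPKM. The library labelled WT replicate 3 had the highest sum for both of these lists as it did for the members, but the NK and cytotoxic sum was nearly as high in that labelled WT replicate 1, where the members were lowest. GNLY alone made up 403 of the 709 FPKM there. The mean deviation of the NK and cytotoxic list was 0.034, -0.54 and 0.62 under the WT label and 0.22, -0.56 and 0.21 under the leptin label. GNLY and GZMB, which encode granule proteins of cytotoxic cells, were highest in that labelled WT replicate 1, at 403 and 49.4 FPKM, and CST7 and NCR1 were highest in those labelled leptin replicates 1 and 3, while GZMA (both rows), KLRB1, KLRK1, NKG7 and PRF1 were highest in that labelled WT replicate 3. Of the plasmablast genes, JCHAIN, MZB1, POU2AF1, TNFRSF17 and DERL3 were each highest in that labelled WT replicate 3, at 476, 103, 73.0, 19.5 and 15.5 FPKM, while SDC1 was highest in that labelled WT replicate 2, at 2.14 FPKM.

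The T cell list (10 of 10 names) summed to 994, 754 and 1041 FPKM and to 1133, 676 and 1169 FPKM. It was lowest in the libraries labelled WT replicate 2 and leptin replicate 2, where the members were also low, but not in that labelled WT replicate 1. The B cell list (6 of 8 names) summed to 381, 678 and 668 FPKM under the WT label and to 661, 552 and 575 FPKM under the leptin label, and was lowest in the library labelled WT replicate 1, where the members were lowest. The monocyte list (6 of 8 names) summed to 835, 435 and 367 FPKM and to 500, 848 and 586 FPKM. It was thus highest in the libraries labelled leptin replicate 2 and WT replicate 1, where the members were low, and lowest in that labelled WT replicate 3, where they were highest. The platelet list (7 of 9 names) ran from 251 to 566 FPKM and from 193 to 536 FPKM, and the erythroid list (4 of 14 names) from 42.1 to 226 FPKM and from 37.8 to 117 FPKM. HBM was listed at 0 in 2 libraries and GP1BB in 4. The blood progenitor list (4 of 8 names) summed to 10.9, 12.5 and 16.8 FPKM under the WT label and to 18.7, 34.9 and 18.3 FPKM under the leptin label, and was the 1 marker list whose sums did not overlap between the labels. Of its 4 genes only MYB, a transcription factor of progenitors, had no overlap between labels (5.0% of all genes were higher under the leptin label with no overlap), and it was the 1 marker gene with an unadjusted p under 0.05 over the 6 libraries (log2 difference 0.51, adjusted p = 0.993, limma). Without both replicate 1 libraries the log2 difference of MYB was 0.64 (adjusted p = 0.999, limma). Overlap of the sums or of MYB could not arise there, since leaving libraries out cannot create one. FLT3, KIT and GATA2 overlapped, and GATA2 made up 22.3 of the 34.9 FPKM in the library labelled leptin replicate 2. In the library labelled leptin replicate 2, where this list was highest, the members were low.

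**Figure D5:**
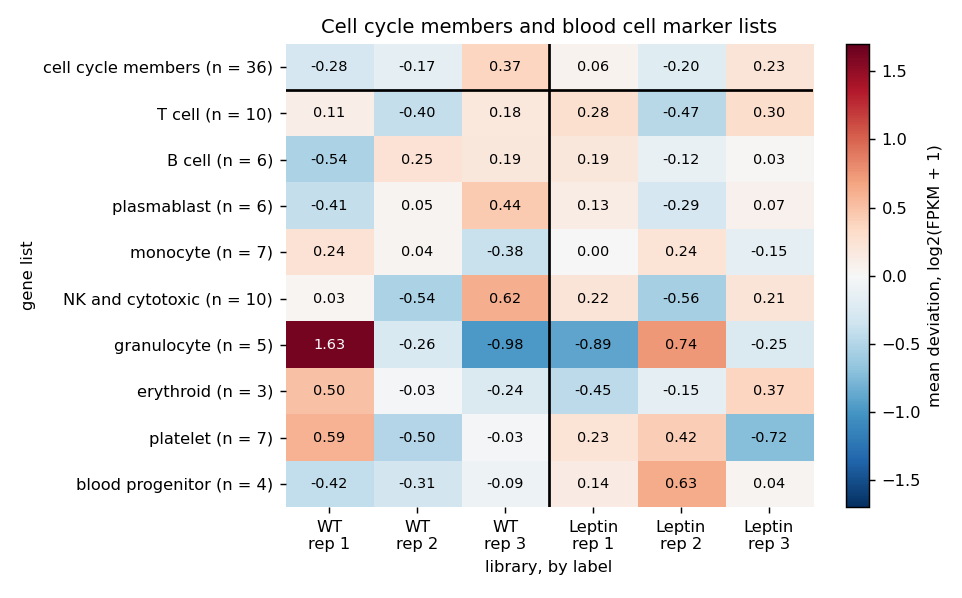
Mean deviation of log2(FPKM + 1) (number and colour) of the 36 members and of 9 blood cell marker lists in each library, by label. The members are highest in WT replicate 3 (0.37), where the NK and cytotoxic (0.62) and plasmablast (0.44) lists are also highest and the granulocyte list is lowest (-0.98).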

How the data were processed

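RNA of PBMCs was sequenced from 6 pigs. Per the labels, libraries were strand-specific TruSeq libraries of TRIzol RNA. The authors' methods name Bowtie, RSEM and transcripts of Ensembl version 75 for paired-end reads of 101 bp, whereas the submitters' processing notes name FastQC, STAR 2.5, Cuffnorm and DESeq 1.22.1, and which of these made the table could not be settled. The deposited values are FPKM by the authors, 1 per gene and library. The table also holds the authors' own fold changes, p-values, marks and annotation, none of which were used. Columns were matched to libraries by the codes in the labels, and no batch is named.

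FPKM values were compared by label with limma 3.58.1 in R 4.3.3 (lmFit and eBayes, trend and robust off) on log2(FPKM + 1), which understates differences of low genes, for 10735 genes that reached 1 FPKM in 3 or more libraries. Tests were two-sided, and p was adjusted over all of these genes by Benjamini-Hochberg. The fit was tested on simulated data with changes far larger than any difference of the members and with independent noise in each library. That test did not cover differences as small as those of the members. Levels were computed with pandas 2.3.3 under Python 3.11.15. Of the 36 members, 28 had their identifier in the reference table of names, all 28 under the same symbol. No sequences are printed.

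The members and lists were chosen with earlier results of these data known. Named members are, in each of 6 classes, the 2 with the highest mean FPKM and those with the most positive and most negative log2 difference, and the 5 with the largest spread. From each further list, the genes at either end of the log2 differences are named. All other members and genes given were chosen after their values were seen. Whether the libraries of a label are independent litters is not stated, so p-values measure the spread between these libraries. Alternatives tried were the pseudocount of 0.1, other filters, median-of-ratios scaling, other variance settings, the replicate block and libraries left out.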

Additional observations from a re-analysis of the deposited data

How the results depend on the processing

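The counts of members with an adjusted p under 0.05, and of members with an unadjusted p under 0.05 and lower values under the leptin label, were 0 under every alternative run with limma. The count with higher values was 0 in all but 1, and ranged from 0 to 4 as libraries were left out in turn, with the 4 found without the library labelled WT replicate 3. The median log2 difference of the members ranged from -0.067 to 0.29 with a library left out, that of the G1/S and S members from -0.11 to 0.23 and that of the G2 and M members from -0.044 to 0.32. With median-of-ratios scaling these medians were 0.0048, -0.057 and 0.050, and over all genes tested 167 were then higher and 250 lower at an unadjusted p under 0.05, in place of 213 and 128. The filter of at least 1 FPKM in every library left 33 members with a median of 0.061, and the G1/S and S median became 0.0019. Chosen after the data were seen, the same scaling gave 13 members lowest in the library labelled WT replicate 1 in place of 21. The smallest adjusted p of a member was 0.618 without the library labelled WT replicate 3 and 0.923 or more otherwise.

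The replicate block left the members' counts at 0 and their median at 0.056, and gave 216 higher and 168 lower genes in all. The numbers pair no animals, and deviations of same-numbered libraries correlated across genes at -0.28, 0.13 and -0.0073, and not every library correlated best with its own number.

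Of the 36 members, 27 changed the sign of their log2 difference as libraries were left out in turn and 14 without both replicate 1 libraries. Of 48 single genes recomputed under each alternative (part of the members and of the other cycle genes), 30 changed sign under at least 1, and these follow, none past an adjusted p of 0.05 in either direction. With libraries left out in turn, the log2 difference ranged from -0.052 to 0.30 for CDK2, -0.13 to 0.098 for E2F1, -0.056 to 0.20 for CDC45, -0.12 to 0.32 for MCM4, -0.0034 to 0.37 for GINS2, -0.23 to 0.21 for CDT1, -0.11 to 0.14 for RRM1, -0.14 to 0.031 for CHEK1, -0.068 to 0.39 for UBE2C, -0.19 to 0.42 for AURKB, -0.11 to 0.27 for MAD2L1, -0.34 to 0.036 for CENPF, -0.38 to 0.13 for MKI67, -0.021 to 0.32 for CCNA2, -0.052 to 0.32 for CCNB1, -0.015 to 0.46 for CCNB2, -0.029 to 0.40 for TPX2, -0.11 to 0.34 for KIF11, -0.30 to 0.25 for BUB1B, -0.12 to 0.17 for BUB1, -0.28 to 0.30 for FEN1, -0.19 to 0.33 for CENPE, -0.21 to 0.26 for MCM3, -0.050 to 0.26 for CCNH, -0.26 to 0.027 for CCND3, -0.068 to 0.31 for CDKN2C, -0.18 to 0.023 for ANAPC10 and -0.64 to 0.029 for TXNIP. With median-of-ratios scaling it was -0.013 for CDC45, -0.025 for MCM4, -0.061 for RRM1, -0.033 for BUB1 and -0.020 for CENPE, which was also -4.13e-04 with a pseudocount of 0.1. Without both replicate 1 libraries it was -0.12 for CDC45, -0.16 for MCM4, -0.13 for GINS2, -0.010 for PCNA, -0.18 for RRM1, -0.027 for UBE2C, -0.21 for AURKB, -0.066 for CCNA2, -0.041 for CCNB1, -0.036 for CCNB2, -0.10 for KIF11, -0.058 for BUB1, -0.15 for MAD2L1, -0.15 for CCNH, 0.088 for CCND3, -0.084 for CDKN2C, 0.039 for E2F3 and 0.23 for TXNIP. The cause was not tested. In all, 77 of 669 alternative values of single genes had the other sign. Of the members, the filter in every library dropped CHEK1, CENPE and TTK. It also dropped CDKN2B and other cycle genes outside the member list, such as DTL. Depth is unknown, and precision rests on 3 libraries per label.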
